A study of Homo sapiens with 4 samples.

Results

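The 45 genes described here serve the G1/S transition and DNA replication: they license origins, unwind and copy DNA, supply nucleotides, join the new strands and pass histones to them, and they include the E2F and cyclin E genes that set off S phase. They were taken as every probe set whose platform annotation names one of these genes alone, which gave 86 probe sets for all 45 genes, of 19775 genes with a probe set of their own. A gene is represented by its brightest probe set. RNA came from Raji, an Epstein-Barr virus-positive Burkitt lymphoma cell line, and was hybridised to 4 Affymetrix arrays: 2 arrays of a DLEU1-downregulated clone, made with TALENs, which are designed nucleases that cut DNA at a chosen place, and 2 arrays of a wild type control clone. Both clones were kept in RPMI with serum. The treatment text of the labels, which names the TALENs, stands on the control samples as well, so it is not settled whether the control clone had also met the nucleases. Each genotype is 1 clone, so the effect of DLEU1 and the difference between any pair of clones cannot be told apart. The labels do not say whether the 2 arrays of a clone came from separate cultures, and p-values here reflect no more than array-to-array spread, which may be technical.

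Before S phase, the origin recognition complex, CDC6 and CDT1 load the MCM2-7 ring onto DNA. Cyclin E with its kinase helps to lift the RB block from E2F factors, which switch on most genes of replication. CDC45 and the GINS complex join the loaded ring to form the active helicase. Polymerase alpha-primase lays the primers, the RFC clamp loader places the PCNA ring, and polymerases delta and epsilon extend the strands. Burkitt lymphoma cells carry a translocated MYC gene and divide fast.

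Because E2F sites are the known shared feature of these genes, their promoters were searched for TTTCGCGC and TTTGGCGC, forms of the E2F site, on both strands. The windows run from 250 bases before to 50 bases after a gene's start in RefSeq's annotation of GRCh38.p14. At least 1 window was found for 40 of the 45 genes. MCM4, MCM5, GINS4, POLD3 and CCNE2 had none. The letters stand in 14 of 52 windows (26.9%) of the replication genes, and in 403 of 35116 windows (1.15%) of all genes. CCAAT, the box bound by NF-Y and searched on both strands, stands in 30 of the 52 windows (57.7%) and in 34.6% of all windows. Below are the windows of the 3 matched genes with the largest log2 change (MCM7, CDC6 and GINS1) and of the 2 with the smallest (MCM6 and E2F2), each written 5' to 3' on the gene's strand, with the matched letters in capitals.
MCM7, chr7:100101348-100101647 (minus strand): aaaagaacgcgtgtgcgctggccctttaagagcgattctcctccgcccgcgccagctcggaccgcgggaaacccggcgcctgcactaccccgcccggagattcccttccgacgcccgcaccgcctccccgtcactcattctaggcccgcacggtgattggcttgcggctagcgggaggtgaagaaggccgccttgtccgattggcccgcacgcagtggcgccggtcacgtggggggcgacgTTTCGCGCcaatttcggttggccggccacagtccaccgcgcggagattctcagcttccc
CDC6, chr17:40287629-40287928 (plus strand): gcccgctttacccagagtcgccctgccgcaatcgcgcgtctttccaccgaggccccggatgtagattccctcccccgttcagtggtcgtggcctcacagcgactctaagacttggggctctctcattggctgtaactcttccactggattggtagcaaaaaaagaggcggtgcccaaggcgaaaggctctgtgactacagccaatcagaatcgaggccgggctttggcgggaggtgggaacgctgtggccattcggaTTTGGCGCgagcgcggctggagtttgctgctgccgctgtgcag
GINS1, chr20:25407423-25407722 (plus strand): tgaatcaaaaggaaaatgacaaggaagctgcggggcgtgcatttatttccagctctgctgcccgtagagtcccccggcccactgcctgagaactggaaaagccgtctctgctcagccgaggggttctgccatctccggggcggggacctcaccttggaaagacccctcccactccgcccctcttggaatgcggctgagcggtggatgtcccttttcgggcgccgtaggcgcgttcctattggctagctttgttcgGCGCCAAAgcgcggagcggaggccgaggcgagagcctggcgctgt
MCM6, chr2:135876394-135876693 (minus strand): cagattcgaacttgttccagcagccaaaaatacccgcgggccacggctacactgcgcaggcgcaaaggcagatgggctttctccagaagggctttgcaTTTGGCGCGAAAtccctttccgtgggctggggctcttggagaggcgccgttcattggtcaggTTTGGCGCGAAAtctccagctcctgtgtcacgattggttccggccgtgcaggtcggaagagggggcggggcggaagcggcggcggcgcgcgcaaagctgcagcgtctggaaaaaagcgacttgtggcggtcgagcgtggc
E2F2, chr1:23531184-23531483 (minus strand): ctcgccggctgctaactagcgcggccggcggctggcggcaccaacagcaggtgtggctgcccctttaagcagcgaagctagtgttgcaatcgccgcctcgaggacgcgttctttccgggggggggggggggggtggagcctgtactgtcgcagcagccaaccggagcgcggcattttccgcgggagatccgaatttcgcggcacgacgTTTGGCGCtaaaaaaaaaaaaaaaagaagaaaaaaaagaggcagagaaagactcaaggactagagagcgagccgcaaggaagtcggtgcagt
The match begins 9 bases before the start in MCM7 and 42 bases before it in E2F2. It begins 7 bases after the start in CDC6 and 5 bases after it in GINS1, where it reads GCGCCAAA on the printed strand. MCM6 holds the run TTTGGCGCGAAA at 152 and again at 90 bases before the start, and each run matches on both strands with overlapping letters. Of the 15 genes with a window that were higher in the DLEU1-downregulated clone, 6 had a match (MCM7, CDC6, GINS1, POLE, UHRF1 and E2F1), against 8 of the 25 that were not (POLE2, MCM3, CDC25A, POLA1, POLA2, MCM2, MCM6 and E2F2). A match is a description of the letters, not a bound site.

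The 4 arrays differed in overall brightness, with 2% trimmed means of 172 and 197 on the DLEU1-downregulated arrays and 163 and 131 on the control arrays, so the deposited values share no common scale. DLEU1 itself, a long non-coding RNA gene on chromosome 13, read 523.7 and 616.9 on the DLEU1-downregulated arrays, against 1363.4 and 1023.8 on the control arrays. Its log2 change, DLEU1-downregulated minus control, was -1.04 ± 0.24 (SE, limma adjusted p = 3.20e-04), where log2 values here and below are of intensity plus 16. That call was lost without replicate 1 (adjusted p = 0.218) or replicate 2 (adjusted p = 0.1396) of the downregulated clone. After quantile normalization, which gives every array the same distribution, the change was -1.38 (adjusted p = 2.90e-06), and it passed without each array in turn. The B-cell markers CD22, CD79A, CD79B, MS4A1, PAX5 and BLK summed to 13942.8 and 15857.9 on the DLEU1-downregulated arrays and to 15100.5 and 12643.8 on the control arrays. On the DLEU1-downregulated arrays, T-cell markers summed to 36.7 to 45.2, myeloid to 57.6 to 65.3, epithelial to 60.7 to 69.1, erythroid to 64 to 69.5 and fibroblast to 114.6 to 167.7. On the control arrays, T-cell markers summed to 44.4 to 60, myeloid to 49.5 to 60.1, epithelial to 61 to 73.7, erythroid to 50.6 to 55.1 and fibroblast to 193.2 to 202.2. Of the markers bright enough to be tested, COL1A2 fell and the others did not pass as deposited. After quantile normalization COL1A2 fell, and so did 5 of the 6 B-cell markers: CD22 (-0.93), CD79B (-0.41), BLK (-0.37), PAX5 (-0.23) and CD79A (-0.21). In RNA of whole cultures, fewer cells in S phase and less of an mRNA per cell cannot be told apart.

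RFC2, CHAF1B, MCM7 and CDC6 rose most on the log2 scale in the DLEU1-downregulated clone, CDT1 fell, and as a group the replication genes rose about as often as other genes of like brightness. Of the 45 genes, 17 rose and 1 fell at a limma adjusted p under 0.05, and the median log2 change was 0.49. The median over all 13284 genes tested was 0.19, of which 20.3% rose and 5.74% fell. Among 2976 other genes within the members' middle range of brightness (their interquartile range of mean log2 value), the median change was 0.37, 31.3% rose and 3.76% fell. The members' share of rises, 37.8%, thus lay near that of genes in this middle range. Members brighter or dimmer than that range had no matched genes in the comparison. After quantile normalization, 18 rose and 6 fell, with a median of 0.14 against 0.01 for the genes of like brightness. In that fit 20.6% of all genes rose and 20.6% fell, and 33.4% and 32.2% of the genes of like brightness, so that the members' 13.3% of falls was below both backgrounds; no test was made of this difference.

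By single genes, 16 members rose and 1 fell on both scales. UNG rose only on the deposited scale, GINS2 and POLE2 only after quantile normalization, and RRM1, TK1, PRIM1, E2F2 and GINS4 fell only after it. On that scale 5 of 6 B-cell markers fell as well, and what part this has in the 5 genes' falls was not tested. The other 20 passed on neither scale. With each array centred on its median instead, 32 members rose and 3 fell, against 36.7% and 8.42% of all genes. Calls for single genes below therefore depend on the scaling. Both DLEU1-downregulated arrays lay above both control arrays for 34 members, or 75.6%, and both lay below for 5, or 11.1%, while 6 overlapped. Of the other genes of like brightness 59.2% lay above and 10.9% below in the same sense, and of all 13284 genes tested 43.3% and 17.8%. With 2 arrays against 2, an exact two-sided permutation test cannot go below p = 0.333. As deposited, leaving out control replicate 1 kept the number of rises at 17, and leaving out control replicate 2 left 6. Of the DLEU1-downregulated arrays, omitting replicate 1 left 3 rises and omitting replicate 2 left 1. RFC2 was the only member past the threshold in all 5 of these fits, the full one included. After quantile normalization the same omissions left 13 to 20 rises and 5 to 7 falls, and 16 members passed in all 5 fits: CDC6, CHAF1B, FEN1, GINS1, MCM4, MCM7, PCNA, POLD1, RFC2, SLBP and UHRF1, which were higher, and CDT1, E2F2, PRIM1, RRM1 and TK1, which were lower.

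**Figure D1:**
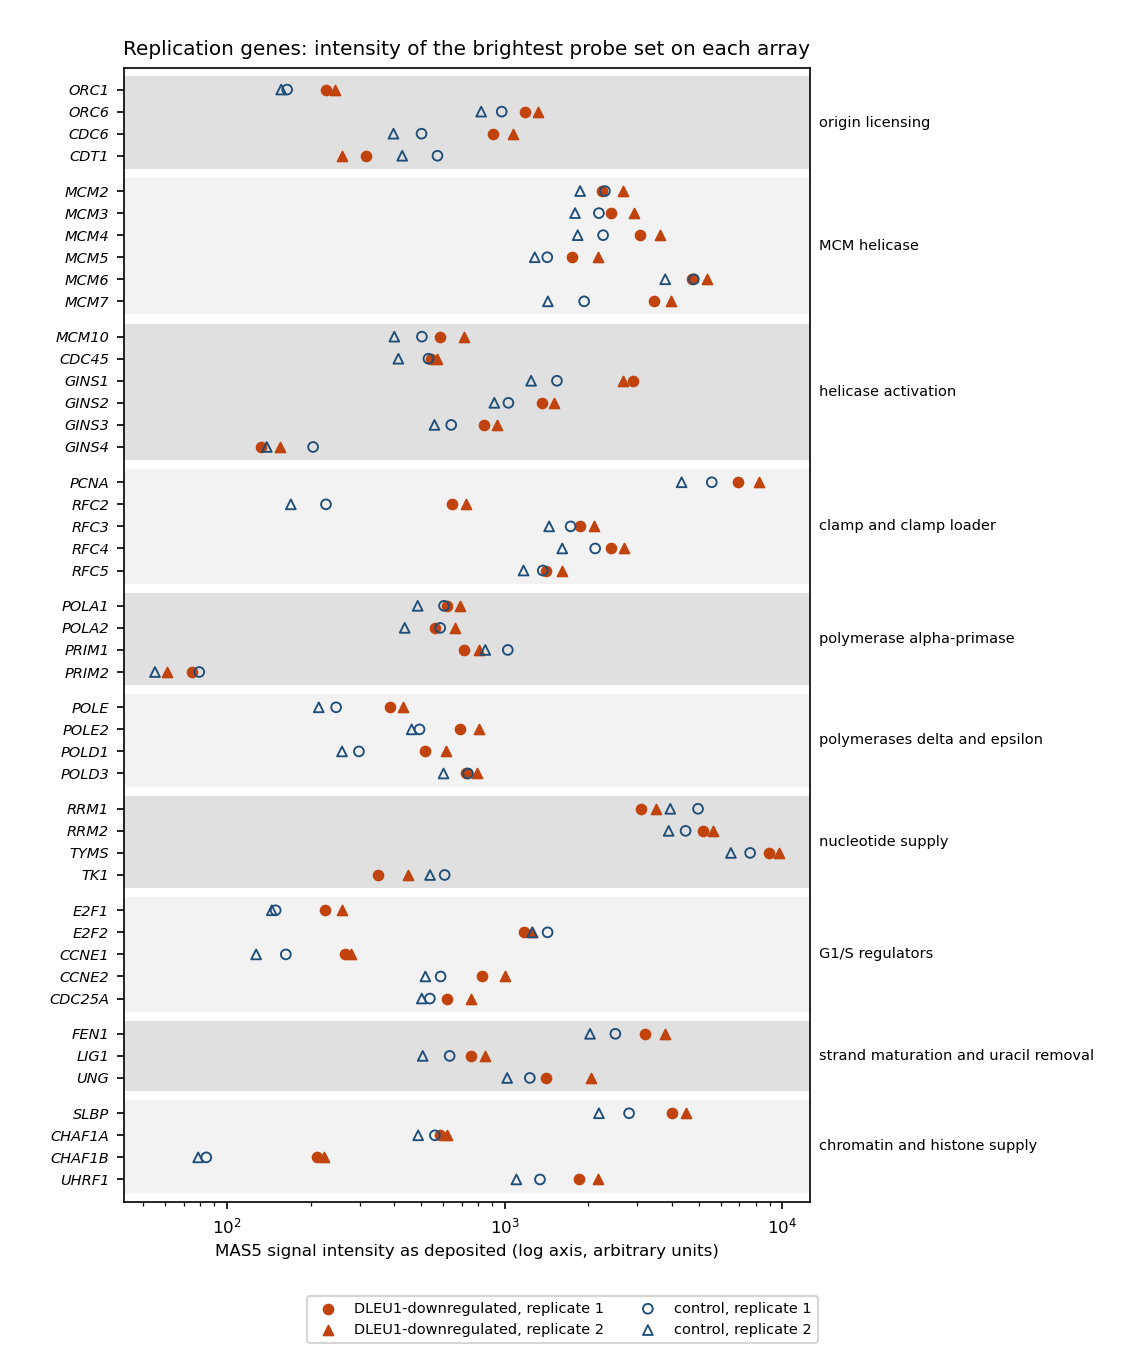
Intensity of the brightest probe set of each of the 45 replication genes (log axis, arbitrary units of MAS5 signal) on the 2 DLEU1-downregulated arrays (filled) and the 2 control arrays (open), grouped by role. Filled points lie right of both open points in 34 genes and left of both in 5, CDT1, RRM1, PRIM1, TK1 and E2F2.

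Of the 4 origin licensing genes, CDC6 rose and CDT1 fell. CDC6, the ATPase that recruits the MCM ring to the origin, read 907.3 and 1070 on the DLEU1-downregulated arrays, against 501.6 and 397.5 on the control arrays. It rose 2.20-fold in mean intensity (log2 change 1.11 ± 0.25, SE, adjusted p = 1.37e-04). CDT1, its partner in loading the ring, which is destroyed once S phase begins, went the other way. It read 317.2 and 259.2 on the DLEU1-downregulated arrays, against 572.4 and 427.3 on the control arrays, a log2 change of -0.75 ± 0.26 (SE, adjusted p = 0.0207), or -1.08 after quantile normalization. The arrays of the clones did not overlap for CDC6 or CDT1. The call for CDT1, whose brightest probe set carries the cross-hybridisation suffix _x_at, was lost without control replicate 1 (adjusted p = 0.128) or without either array of the downregulated clone (0.261 and 0.587). ORC1 and ORC6 belong to the origin recognition complex. Their log2 changes were 0.51 and 0.48 (adjusted p = 0.145 and 0.133), and 0.23 and 0.13 after quantile normalization, and neither passed.

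Within the MCM helicase, MCM7 and MCM4 rose, and the other 4 subunits did not pass as deposited or after quantile normalization. MCM7 read 3454.1 and 3956 on the DLEU1-downregulated arrays, against 1931.7 and 1430.2 on the control arrays. Its log2 change was 1.15 ± 0.20 (SE, adjusted p = 8.51e-07). On quantile-normalized values it was 0.78 (adjusted p = 1.76e-05). MCM4 read 3067.6 and 3624.6 on the DLEU1-downregulated arrays and 2260 and 1830.9 on the control arrays (log2 change 0.71, adjusted p = 0.00406). MCM2, MCM3, MCM5 and MCM6, which sit in the same ring, had log2 changes of 0.24 to 0.53 as deposited and -0.14 to 0.18 after quantile normalization. With each array centred on its median instead, these changes were 0.28 to 0.57 and all of them passed. For MCM2 and MCM6 the arrays of the clones overlapped: MCM6 read 4715.2 and 5347.8 in the downregulated clone and 4797.3 and 3782.6 in the control clone.

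Of the genes that turn the ring into a running helicase, GINS1 was the 1 of 6 that rose. GINS1, a subunit of the 4-part GINS complex, read 2895.7 and 2673.9 on the DLEU1-downregulated arrays and 1541.3 and 1244.1 on the control arrays, with a log2 change of 1.00 ± 0.21 (SE, adjusted p = 5.96e-05). The other 3 GINS subunits did not pass as deposited. GINS2 and GINS3 had log2 changes of 0.55 and 0.56 (adjusted p = 0.0676 and 0.0859), and GINS2 passed after quantile normalization (0.21, adjusted p = 0.0413). GINS4 read 132.4 and 155.1 in the downregulated clone and 204.1 and 139 in the control clone, so its arrays overlapped. Its change of -0.21 (adjusted p = 0.613) became -0.48 after quantile normalization (adjusted p = 0.0167). Dimmer GINS4 probe sets had changes of 0.27, 0.06 and 0.05 after quantile normalization, and none of them passed. MCM10, which helps to start the helicase, and CDC45, which completes it, had log2 changes of 0.51 and 0.24 and did not pass on either scale.

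The largest change of any member was in the clamp loader. RFC2, one of its small ATPase subunits, read 643.7 and 725 on the DLEU1-downregulated arrays, against 227.1 and 169.7 on the control arrays. It averaged 684.4 ± 57.5 in the downregulated clone and 198.4 ± 40.6 in the control clone (SD, n = 2 each). This 3.45-fold rise corresponds to a log2 change of 1.72 ± 0.26 (SE, adjusted p = 3.27e-09). Quantile normalization gave 1.40 (adjusted p = 7.75e-06). Its partners in the same pentamer, RFC3, RFC4 and RFC5, had log2 changes of 0.32, 0.46 and 0.24, and -0.05, 0.09 and -0.10 after quantile normalization. None of these 3 passed on those scales. With each array centred on its median instead, RFC3 (0.36) and RFC4 (0.50) passed and RFC5 (0.29) did not. PCNA, the sliding clamp that RFC loads, read 6929.3 and 8204.1 in the downregulated clone and 5564.9 and 4333.4 in the control clone. It rose by a log2 change of 0.62 (adjusted p = 0.00244), or 0.29 after quantile normalization (adjusted p = 0.00253).

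Among the polymerases, the catalytic subunits POLD1 and POLE rose, and no gene of polymerase alpha-primase did. POLD1, the catalytic subunit of polymerase delta, read 514.4 and 612.5 on the DLEU1-downregulated arrays and 298.5 and 259.4 on the control arrays (log2 change 0.97, adjusted p = 0.00183). POLE, its counterpart in polymerase epsilon, read 386.4 and 431.7 in the downregulated clone and 247 and 213.9 in the control clone (log2 change 0.79, adjusted p = 0.0157). Of their accessory subunits, POLE2 had a change of 0.63 (adjusted p = 0.0540; 0.28 and adjusted p = 0.0367 after quantile normalization), and POLD3 one of 0.19 (adjusted p = 0.649). In the complex that primes each strand, POLA1 and POLA2 had log2 changes of 0.26 each, which turned to -0.08 and -0.09 after quantile normalization. PRIM1, the catalytic primase subunit, read 713.1 and 805.6 on the DLEU1-downregulated arrays and 1025.6 and 850.9 on the control arrays, below them on both. Its change was -0.30 (adjusted p = 0.414). It passed on quantile-normalized values, at -0.64 (adjusted p = 9.57e-05). PRIM2, the large primase subunit, read 74.5 and 60.9 in the downregulated clone and 79.4 and 55 in the control clone, and the clones overlapped. Since the annotation pairs PRIM2 with a near copy, PRIM2BP, on further probe sets, its value is uncertain.

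Of the nucleotide supply genes, TYMS rose on both scales, and RRM1 and TK1 fell after quantile normalization. RRM1, the large subunit of ribonucleotide reductase, which makes all deoxyribonucleotides, read 3096.6 and 3517 on the DLEU1-downregulated arrays, against 4965.5 and 3945.4 on the control arrays. Its log2 change was -0.42 ± 0.19 (SE, adjusted p = 0.0862) as deposited and -0.76 ± 0.04 (SE, adjusted p = 5.91e-06) after quantile normalization. RRM2, the small subunit of the same enzyme, read 5179.2 and 5628.5 in the downregulated clone and 4478.7 and 3893.1 in the control clone. Its changes of 0.37 and, after quantile normalization, 0.03 did not pass. TYMS, which makes thymidylate, read 8977.6 and 9701.1 in the downregulated clone and 7648 and 6520.7 in the control clone. Its rise was 0.40 on the log2 scale (adjusted p = 0.0464). TK1, the thymidine salvage kinase, read 349.2 and 448.5 on the DLEU1-downregulated arrays and 607.7 and 538.2 on the control arrays. The clones did not overlap. Its change of -0.51 (adjusted p = 0.137) became -0.85 on quantile-normalized values, where it passed (adjusted p = 1.25e-04).

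Of the G1/S regulators, the cyclins E and E2F1 rose while E2F2 and CDC25A did not pass. CCNE1 read 265 and 278.6 on the DLEU1-downregulated arrays and 162.8 and 127.3 on the control arrays (log2 change 0.85, adjusted p = 0.00855). CCNE2, the other cyclin E gene, read 829.4 and 998 in the downregulated clone and 587.6 and 517.8 in the control clone (0.71, adjusted p = 0.0237). E2F1, an activator of replication genes, read 225.2 and 260.1 in the downregulated clone and 149.6 and 144.9 in the control clone (0.66, adjusted p = 0.0491), close to the threshold. E2F2, a second activator of the same family, read 1169.4 and 1255.5 on the DLEU1-downregulated arrays and 1426.2 and 1256.3 on the control arrays, so that its closest arrays nearly touched. Its change was -0.14 (adjusted p = 0.718), against -0.49 on quantile-normalized values (adjusted p = 5.61e-04). CDC25A, the phosphatase that frees cyclin E kinase from inhibition, had a change of 0.39 (adjusted p = 0.273), and 0.04 after quantile normalization.

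Genes of strand maturation and chromatin were higher or did not pass. FEN1, the nuclease that trims Okazaki fragments, read 3199.1 and 3769.3 on the DLEU1-downregulated arrays and 2502.1 and 2027.9 on the control arrays (log2 change 0.62, adjusted p = 0.0121). LIG1, the ligase that seals them, had a change of 0.49 (adjusted p = 0.146). UNG, which removes uracil from DNA, read 1402 and 2040.2 in the downregulated clone and 1231 and 1020.3 in the control clone. The downregulated arrays differed widely for it, and its rise of 0.59 (adjusted p = 0.0433) was 0.24 (adjusted p = 0.0840) after quantile normalization. CHAF1B, the middle subunit of the histone chaperone CAF-1, read 211.2 and 223.5 in the downregulated clone and 84.2 and 78.7 in the control clone. This 2.67-fold rise (log2 change 1.26 ± 0.26, SE, adjusted p = 2.49e-05) was the second largest among members. CHAF1A, the large subunit of the same chaperone, had a change of 0.20 (adjusted p = 0.627), and -0.15 after quantile normalization. SLBP, which binds the stem-loop of histone mRNA, read 3992 and 4510.4 on the DLEU1-downregulated arrays and 2803.3 and 2183.1 on the control arrays (0.77, adjusted p = 7.96e-04). UHRF1, which guides maintenance of DNA methylation behind the fork, rose by 0.71 (adjusted p = 0.00937).

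**Figure D2:**
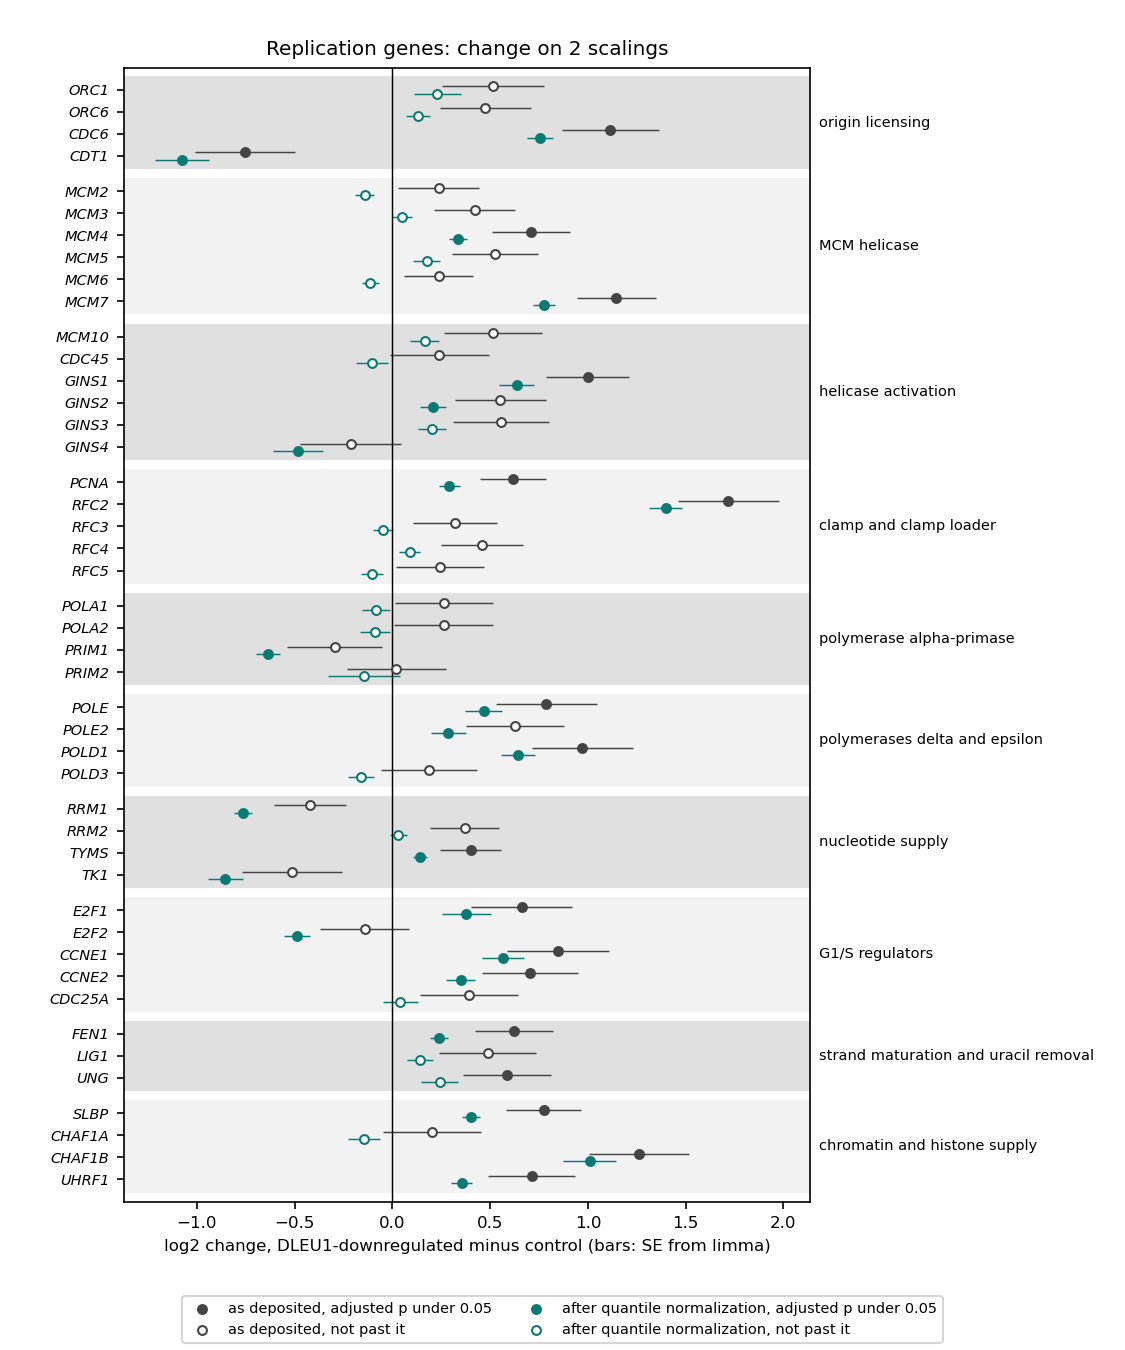
Log2 change of each replication gene (DLEU1-downregulated minus control, brightest probe set) with its SE from limma, as deposited (grey) and after quantile normalization (green); filled points have an adjusted p under 0.05. Of the 45 genes, 39 lie right of zero as deposited and 29 after quantile normalization, and RFC2 lies farthest right on both.

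Several members have more than 1 probe set, which gives a check within the same arrays. Of the 86 probe sets 84 were bright enough to be tested, 30 rose and 2 fell, against 17.2% and 5.11% of all 32768 probe sets tested. Brightness was not matched in that comparison. By gene, 31.3% of other genes of like brightness rose, against 20.3% of all genes tested. Of 25 genes with several tested probe sets, 19 had the same call in each, where passing in none counts as the same call. No tested probe set passed in MCM5, MCM6, GINS2, GINS4, RFC3, RFC5, POLA2, POLD3, RRM2, TK1, E2F2 and CHAF1A. Calls differed in 6 genes, where some probe sets passed and others did not, and no gene had calls in opposite directions. Both RFC2 probe sets rose, by 1.72 and 1.87 on the log2 scale, and both MCM7 probe sets, by 1.15 and 1.07. All 4 tested MCM4 probe sets rose, by 0.71 to 1.28, with the brightest the lowest of them. CDC6 rose in both (1.11 and 0.96), as did FEN1 (0.62 and 0.78) and E2F1 (0.66 and 0.79), and TYMS in all 3 (0.40 to 0.82). The TYMS probe set at 0.82 is dim, at 28.3 and 38 in the downregulated clone and 22.4 and 4.1 in the control clone. It did not pass after quantile normalization (adjusted p = 0.0596). A dimmer RRM1 probe set, at 405.5 and 506.6 in the downregulated clone and 860.2 and 713.4 in the control clone, fell by 0.77 (adjusted p = 0.0142) where the brightest did not pass. Dimmer probe sets of CDC25A (0.74), GINS3 (0.71) and MCM10 (0.82) rose where the brightest did not. The second probe sets of CDT1 (-0.53, adjusted p = 0.126) and CCNE2 (0.49, adjusted p = 0.169) did not pass. The E2F2 probe sets disagreed in sign, at -0.14, 0.56 and -0.57, and none passed as deposited. After quantile normalization they were at -0.49, 0.40 and -0.71, and only the brightest passed.

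**Figure D3:**
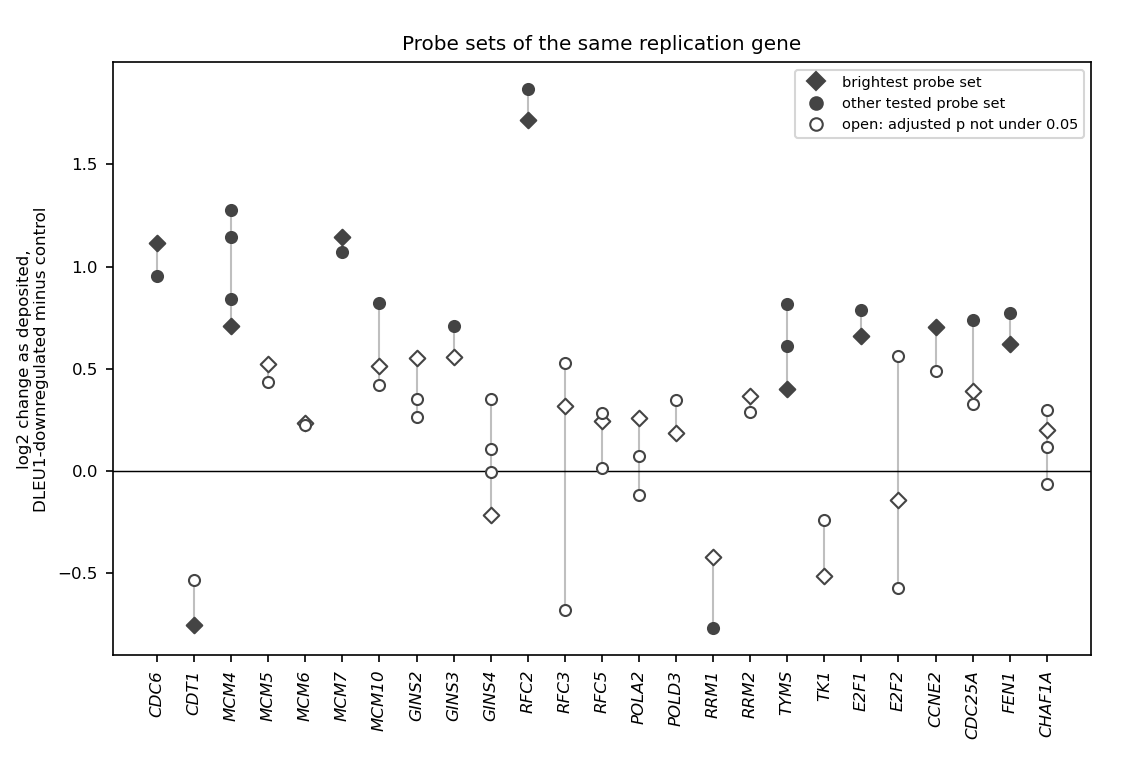
Log2 change as deposited of every tested probe set for the 25 replication genes with more than 1; diamonds mark the brightest, filled symbols an adjusted p under 0.05. The points of RFC2, MCM7, MCM4 and CDC6 all lie above 0.5, while those of GINS4, RFC3, POLA2, E2F2 and CHAF1A fall on both sides of zero.

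Other genes of the replication pathway were taken from a list of 64, of which 63 were tested. Of these, 20 rose and 4 fell (31.7% and 6.35%), with a median log2 change of 0.35, and 21 rose and 21 fell after quantile normalization (33.3% each), with a median of 0.00. These shares lie near those of the genes of like brightness given above, 31.3% and 3.76% as deposited and 33.4% and 32.2% after quantile normalization. The largest rise was in ORC3, an origin recognition subunit, which read 1002.1 and 1096.1 in the downregulated clone and 441.9 and 360.3 in the control clone (log2 change 1.36, adjusted p = 1.94e-06). It was followed by E2F6, a repressor of the E2F family (1.27), RNASEH2B, a subunit of ribonuclease H2 (1.16), SKP2, the ubiquitin ligase subunit that marks the kinase inhibitor p27 for destruction (1.05), POLD2, the second subunit of polymerase delta (1.01), and DBF4, the activator of the origin-firing kinase CDC7 (0.99). The other 3 RNASEH2B probe sets did not pass. SKP2 read 1490.5 and 1753.6 on the DLEU1-downregulated arrays and 825.1 and 728.4 on the control arrays, on an _x_at probe set. CDKN1B, which encodes p27, an inhibitor of cyclin E kinase, moved more than any of the 45 members. It read 243 and 356.6 on the DLEU1-downregulated arrays, against 1278.9 and 896.6 on the control arrays, 3.63-fold lower in mean intensity, with a log2 change of -1.81 ± 0.25 (SE, adjusted p = 1.07e-10). Quantile normalization gave -2.13 (adjusted p = 4.15e-06). The other falls were in CDC25C, a phosphatase of entry into mitosis (-1.02), E2F8, an atypical repressor of the E2F family (-0.73), and POLD4, the small subunit of polymerase delta (-0.70). Within polymerase delta, POLD1 and POLD2 therefore rose, POLD4 fell and POLD3 did not pass. As deposited, the 24 calls became 11 without control replicate 2. Omitting DLEU1-downregulated replicate 1 left 2 calls, and omitting replicate 2 left 1. The CDKN1B log2 change was -2.07 to -1.54 with each array left out in turn and passed each time.

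**Figure D4:**
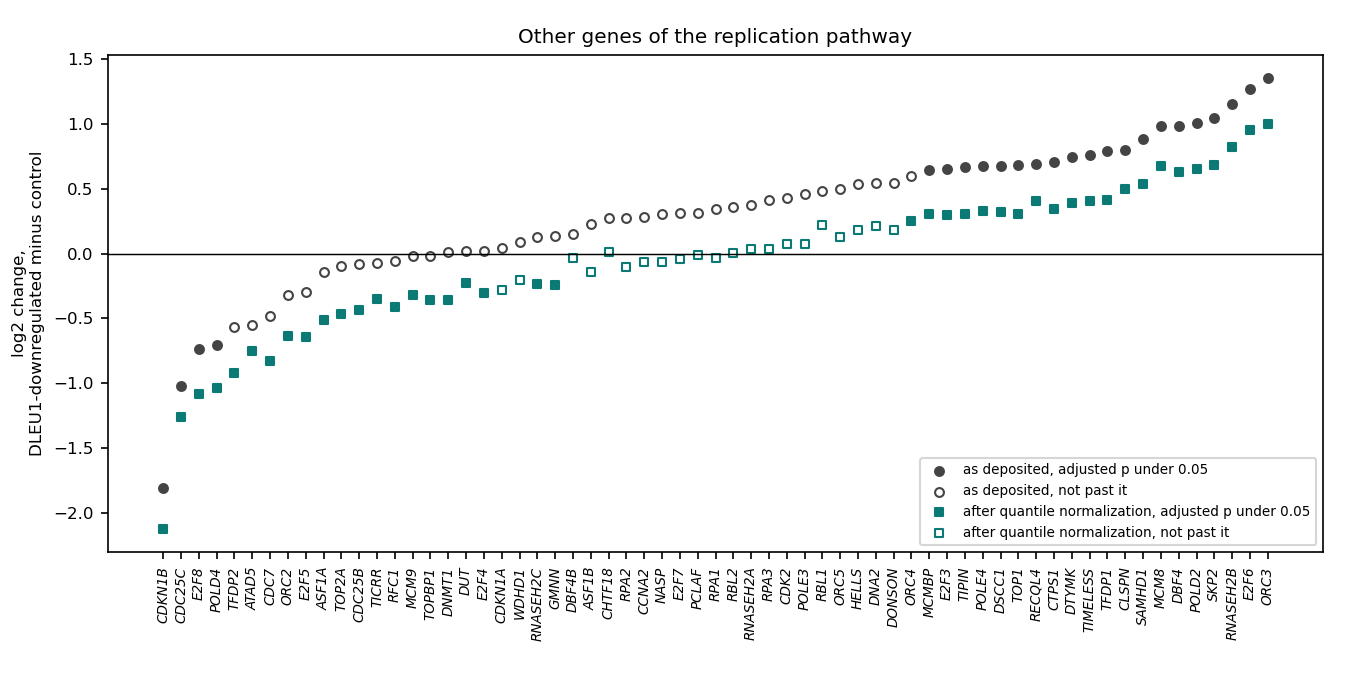
Log2 change of the 63 other replication pathway genes, in order of their change as deposited (grey circles) with the value after quantile normalization (green squares); filled symbols have an adjusted p under 0.05. CDKN1B lies lowest at -1.81 and ORC3 highest at 1.36, and all 63 lie lower after quantile normalization.

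Some members share their direction with the genes beside them on the chromosome. For each member, up to 10 nearest tested genes on each side, in RefSeq's gene order, were taken as neighbours. TYMS, on chromosome 18, had 14 neighbours. Around RFC2, on chromosome 7, 13 of 20 neighbours rose, with a median log2 change of 1.01 as deposited and 0.66 after quantile normalization. Around RRM1, on chromosome 11, the neighbours had a median of -0.35, or -0.31 after quantile normalization, and 3 of 20 fell. PCNA, GINS1 and E2F1 lie on chromosome 20, where the median of the other tested genes was 0.50, and 0.29 after quantile normalization. The values for chromosome 7, which also holds MCM7, were 0.51 and 0.31. On both scales PCNA's change of 0.62 and 0.29 lay close to its neighbours' median of 0.58 and 0.28. CHAF1B and CDC6 lay above theirs, at 0.21 and 0.39 as deposited and -0.05 and 0.13 after quantile normalization. CDT1, at -0.75 as deposited and -1.08 after quantile normalization, had neighbours with medians of 0.31 and 0.19. TK1, at -0.51 and -0.85 on these scales, had neighbours with medians of 0.10 and -0.13. GINS4, on chromosome 8, at -0.21 and -0.48, had neighbours with medians of -0.07 and -0.38. The part of the neighbourhood in these changes was not tested. Chromosomes 6, 7, 8, 11 and 20, a set chosen with earlier results of these data known, hold 14 members, of which 8 rose and none fell, against 25.6% and 6.53% of all 2971 genes tested there. The 31 members elsewhere had 9 rises and the fall of CDT1, against 18.8% and 5.51% of 10313 genes. These shares are over genes of any brightness, and no share for genes of like brightness was taken by chromosome. The difference between these sets of members was not tested.

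**Figure D5:**
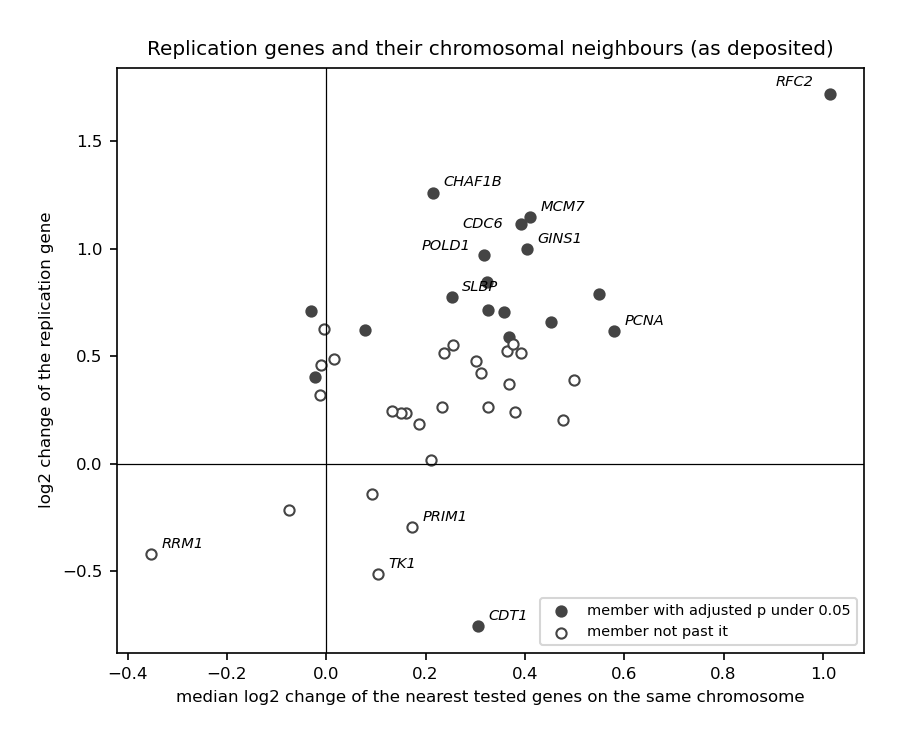
Log2 change of each replication gene (vertical axis) against the median log2 change of its nearest tested genes on the same chromosome (horizontal axis), both as deposited; filled points have an adjusted p under 0.05. RFC2, at 1.72 with a neighbours' median of 1.01, and RRM1, at -0.42 with one of -0.35, lie at the right and left ends of the horizontal axis, while CDT1 at -0.75 lies lowest.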

How the data were processed

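RNA of 4 samples was measured on Affymetrix HGU133_plus_2 arrays. The authors deposited 1 table of linear signal intensity for 54613 probe sets and 62 control probe sets, made with MAS5 per the submitters' processing notes; its version, target intensity and detection calls are not given in the sources used here, and arrays were not pooled per the labels. The values have no counts, so precision is limited by the number of arrays. Platform annotation of 2016 names the genes, with symbols updated through RefSeq's GRCh38.p14 table (41037 probe sets matched). Values were turned into log2(intensity + 16), which understates the change of dim genes. Control probe sets and 21845 probe sets under the 40th percentile of mean log2 value were left out, leaving 32768. limma 3.58.1 in R 4.3.3 (lmFit, eBayes with an intensity trend, group as the only term) gave log2 changes with Benjamini-Hochberg adjusted p over all of these and a threshold of 0.05. limma's prior was infinite as deposited, so that all probe sets of like brightness shared 1 variance. The fit was also run on simulated data with independent noise, a check of the code on large planted changes that lends no support to the calls made here. Named are all members, DLEU1 and, of the other pathway genes, up to 6 rises and 6 falls with the largest change past the threshold; COL1A2 was named after its value was seen. The members and lists were chosen with earlier results of these data known. Alternatives were other scalings, pseudocounts, filters, thresholds, probe set rules and variance models, a replicate block, and leaving out each array.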

Additional observations from a re-analysis of the deposited data

How the results depend on the processing

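Each genotype is 1 clone on 2 arrays, and MAS5 detection calls were not used here, so dim probe sets may be background; p-values rest on the arrays' spread. The main settings called 7293 probe sets, 17 replication genes higher and 1 lower, a members' median of 0.49 and 24 other pathway genes. Quantile normalization gave 11072, 18, 6, 0.14 and 42, a common trimmed mean 11394, 18, 6, 0.17 and 41, and median centring 12902, 32, 3, 0.53 and 44. Of the 45 members, 10 changed sign between the deposited scale and quantile normalization, and none of these 10 passed as deposited. With no filter on dim probe sets 4395 probe sets, 12 rises and 0 falls were called; at a threshold of 0.01 there were 4482, 11 and 0, and 13 other pathway genes. Leaving out _x_at probe sets removed CDT1's brightest probe set and left 0 falls, averaging each gene's probe sets gave 2 falls, and leaving out chromosomes 6, 7, 8, 11 and 20 left fewer genes, with 9 rises and 13 other pathway genes. Pseudocounts of 1 and 64, filters at the 20th and 60th percentiles and eBayes without a trend kept every count of members within 1.5 times, with 13 to 17 rises and 1 fall.

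A replicate block by the number in the titles gave 1901 probe sets, 3 rises, 0 falls and 2 other pathway genes as deposited, and DLEU1 kept its change of -1.04 but lost its call (adjusted p = 0.162). With quantile normalization the block gave 11143 probe sets, 19 rises, 6 falls, a median of 0.14 and 42 other pathway genes. The difference between replicates 1 and 2 of the downregulated clone correlated with that of the control clone at -0.05 over probe sets (-0.01 after quantile normalization). The titles give only a number, so whether same-numbered arrays belong together was not settled. Leaving out each array in turn gave 1060 to 8463 probe sets, 1 to 17 rises, 0 to 1 falls, medians of 0.35 to 0.60, 1 to 27 other pathway genes and a DLEU1 change of -1.24 to -0.83. The same after quantile normalization, added after seeing the data, gave 7005 to 10073 probe sets, 13 to 20 rises, 5 to 7 falls, medians of 0.12 to 0.15, 31 to 38 other pathway genes and a DLEU1 change of -1.43 to -1.33. Each such fit leaves 1 array in a group, assumed to vary like the others. MCM6 turned to -0.14 with a call (adjusted p = 0.0406) after quantile normalization without control replicate 2. Over all settings, 1245 values for single genes comprised 1050 on the same side of the threshold as reported (75 of them uncalled with another sign), 130 that lost a call, 64 that gained one and that of MCM6. Where no cause is given here, the cause was not tested.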

Other observations

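Further probe sets are annotated to both PRIM2 and its near copy PRIM2BP and were left out of the members. The brightest of these read 134.7 and 174.2 on the DLEU1-downregulated arrays and 123.6 and 105.6 on the control arrays, with a log2 change of 0.38 as deposited that did not pass.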
